A study of Homo sapiens with 12 samples.

Results

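The WNT pathway was followed here through 10 genes: the ligands WNT5A, WNT5B and WNT10A, the Frizzled receptors FZD3, FZD5 and FZD6, the co-receptors LRP5 and LRP6, the receptor ROR1 and the transcription factor LEF1. They were chosen by symbol, and all 10 were found among the 26210 genes of a gene-level RNA-seq table. The table holds 12 libraries of 6 conditions, 2 libraries to a condition, and gives each gene as FPKM, the number of sequenced fragments per kilobase of transcript scaled to the size of the library. KM-H2, L1236 and L428 are lines derived from Hodgkin lymphoma and were grown in IMDM, while Namalwa, a Burkitt lymphoma line, and Reh, a leukaemia line labelled pro-B, were the non-Hodgkin controls and were grown in RPMI. All media held fetal calf serum, glutamine and antibiotics. The 6th condition was Reh treated with the phorbol ester PMA, an activator of protein kinase C, at 2 ng/ml, for a time that the labels do not give. The libraries were made from total RNA with a stranded kit after removal of ribosomal RNA. Each condition is a single established line, and the culture medium and the lymphoma class cannot be told apart.

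WNT proteins are secreted, lipid-modified ligands that bind Frizzled receptors at the cell surface. In the branch that runs through beta-catenin, LRP5 or LRP6 joins the Frizzled receptor, beta-catenin is spared from degradation, and it enters the nucleus and binds transcription factors of the TCF/LEF family, to which LEF1 belongs. Other WNT signals, for which WNT5A is the best known ligand and ROR1 a receptor, act on cell polarity, movement and calcium without beta-catenin. In the B lineage LEF1 is known as a factor of precursor cells, and ROR1 is known for its reappearance on some B-cell malignancies.

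The labels were first set beside marker genes. TNFRSF8, which encodes CD30, lay between 19.1 and 63.7 FPKM in the 6 Hodgkin libraries and at or below 0.505 FPKM in the 6 others. CCL17 (at least 12.6 FPKM) and TNFRSF11A (at least 4.26) were also higher in the Hodgkin libraries than elsewhere (at most 0.267 and 0.760). CSF1R did not separate them, with 0.246 to 2.05 FPKM in the Hodgkin libraries and 11.8 and 11.2 in PMA-treated Reh. CD79A, a gene of the B-cell receptor complex, was at or below 2.55 FPKM in the Hodgkin libraries and between 168 and 1102 FPKM in the others. Other B-lineage genes were less uniform: PAX5 stood at 33.8 and 19.8 FPKM in L1236, above PMA-treated Reh (11.3 and 17.4 FPKM), and MS4A1 at only 0.161 and 0.229 FPKM in Reh. Reh carried the precursor genes DNTT (87.9 and 103 FPKM) and RAG1 (435 and 384 FPKM), while VPREB1 and CD34 were listed at 0 in both its libraries. Namalwa also had RAG1 (35.7 and 19.2 FPKM) and VPREB1 (11.4 and 7.89 FPKM), while its DNTT and CD34 were listed at 0. EGR1, an early gene of the PMA response, stood at 0.138 and 0.0349 FPKM in Reh and at 62.1 and 76.2 FPKM in PMA-treated Reh.

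Markers of other cell types were also read. Of 4 T-cell genes, 2 reached 1 FPKM, both in KM-H2, where their summed level was 17.0 and 25.3 FPKM and CD3D was the most abundant. Elsewhere the T-cell sum stayed at or below 0.150 FPKM. Of 4 myeloid genes, 2 reached 1 FPKM: CD14 in KM-H2 (5.79 and 4.56 FPKM) and MPO, the most abundant, in Reh (24.8 and 32.0 FPKM), in PMA-treated Reh (6.44 and 5.00 FPKM) and in L428 library 1 (5.35 FPKM). Of 4 fibroblast genes, 2 reached 1 FPKM, and PDGFRB, the most abundant, stood at 3.07 and 2.68 FPKM in Reh and at 41.5 and 32.3 FPKM after PMA. The other, COL1A1, was highest in KM-H2 (1.06 and 3.67 FPKM) and stood at 0.443 and 0.412 FPKM in Reh and 0.168 and 0.265 after PMA. None of 4 erythroid genes reached 1 FPKM. The part of these markers in the results below was not tested. In bulk RNA, fewer cells with a transcript and less transcript per cell cannot be told apart.

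Some libraries stood apart from their duplicates. Over the 14679 genes tested, the duplicates correlated with r = 0.922 in KM-H2, 0.919 in L1236 and 0.906 in L428, against 0.977 in Namalwa, 0.985 in Reh and 0.969 in PMA-treated Reh. The median level of 82 ribosomal protein genes was 1207 FPKM in L1236 library 0 and 663 in library 1, and 2119 FPKM in L428 library 0 and 459 in library 1. In KM-H2 it was 1393 and 2216 FPKM. It was also low in both PMA libraries (348 and 272 FPKM) against Reh (1472 and 1649 FPKM). EEF1A1, a translation factor, differed likewise, with 5416 and 755 FPKM in L1236, 11598 and 1211 in L428, 5312 and 5592 in Reh, and 585 and 462 after PMA. More than 1 type of sequencing instrument was used, and which library ran on which is not given in the sources used here, so an effect of the instrument and a difference between libraries cannot be told apart. Libraries are named here by the suffix, 0 or 1, of their column, and library 0 is always given first. Results are given for all libraries. In the Hodgkin comparisons, differences of the 10 genes whose call changed are also given without the 3 Hodgkin libraries of suffix 1. That alternative was chosen after these values were seen.

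FPKM values hide the number of fragments, but among low values the steps of a single fragment can be recovered relative to Reh library 0. On that scale the relative depth was 0.386 and 0.588 in KM-H2, 0.617 and 2.33 in L1236, and 0.699 and 1.37 in L428. It was 1.00 and 0.881 in Namalwa, 0.984 in Reh library 1, and 1.58 and 1.67 in the PMA libraries. A single fragment was thus worth the most FPKM in KM-H2, and a low level is least well measured there. Since the scaling option is not known, this relative depth need not equal the number of fragments sequenced. Among all 26210 genes, 13 at 10 FPKM or more in 11 libraries were listed at 0 in the remaining library, although none of 8 housekeeping genes was. A 0 can thus be a failed estimate, and it is reported here only as "listed at 0" and no ratio of FPKM is given against it. Differences on the log2 scale against such a group are given, but their size is set by the pseudocount.

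**Figure D1:**
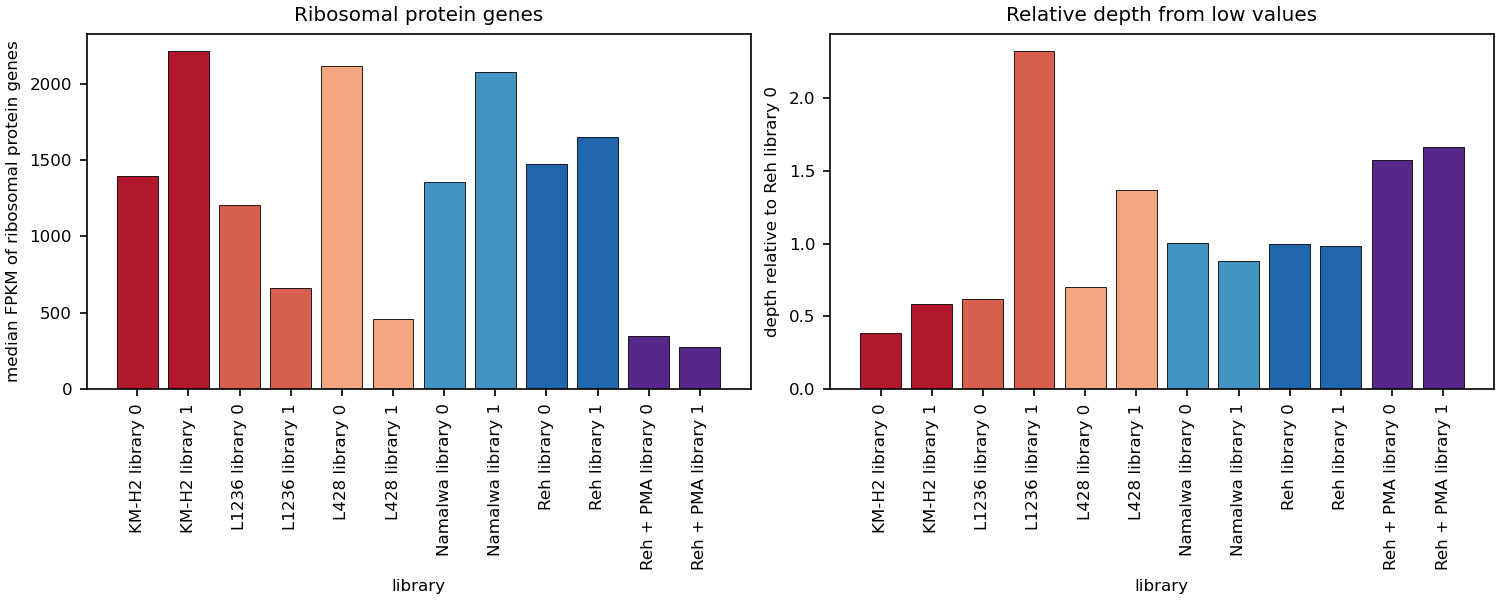
Median FPKM of 82 ribosomal protein genes (left) and depth relative to Reh library 0, as read from low values (right), for each of the 12 libraries, coloured by condition. The ribosomal protein median was 2119 in L428 library 0 and 459 in library 1, and was lowest, at 272, in PMA library 1.

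WNT5A, the ligand best known for signalling without beta-catenin, lies at chr3:55499743-55524567 on the minus strand (GRCh37). It stood at 49.8 and 45.1 FPKM in KM-H2, at 0.661 and 1.52 in L1236, and at 2.80 and 3.19 in L428. In Namalwa it stood at 0.997 and 0.982 FPKM, and it was listed at 0 in both Reh and both PMA libraries. KM-H2 was therefore far above every other line, L428 came next with no overlap, and L1236 and Namalwa overlapped above Reh, which was listed at 0. The KM-H2 mean was 48.0 times that of Namalwa and 15.9 times that of L428.

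On the log2(FPKM + 1) scale, on which all differences below are given and which understates the change of low genes, WNT5A was higher in KM-H2 by 5.60 against Reh (SE 0.21, adjusted p = 1.53e-07) and by 4.60 against Namalwa (adjusted p = 4.05e-07). A difference was called where its adjusted p was under 0.05 and its size 1 or more. L428 was higher than Reh by 2.00 (adjusted p = 6.21e-05) and than Namalwa by 1.00 (adjusted p = 0.00448). L1236 exceeded Reh by 1.03 (adjusted p = 0.00367) and differed from Namalwa by 0.04 (adjusted p = 0.937). The smaller calls rested on single libraries: L1236 against Reh gave 0.73 without L1236 library 1, and L428 against Namalwa gave 0.93 without L428 library 1. Quantile normalization brought them to 0.91 and 0.68, below the size needed for a call. Without Namalwa library 1 the difference between L428 and Namalwa also came just below that size. With a pseudocount of 0.1 in place of 1, the difference of WNT5A between KM-H2 and Reh was 8.89. The 2 libraries of a condition are duplicates that the labels do not describe as separate cultures, so these p-values measure only the spread between libraries, which may be technical.

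WNT10A, a ligand that signals through beta-catenin, lies at chr2:219745574-219764303 on the plus strand (GRCh37). It stood at 47.3 and 34.1 FPKM in KM-H2, 0.826 and 0.873 in L1236, and 1.26 and 0.810 in L428. In Namalwa it stood at 1.25 and 2.68 FPKM, it was listed at 0 in both Reh libraries, and PMA-treated Reh gave 0 and 0.111. As for WNT5A, KM-H2 stood alone at the top and Reh at the bottom, but here Namalwa was second and its range overlapped that of L428, which in turn overlapped L1236. The KM-H2 mean was 20.7 times that of Namalwa and 47.9 times that of L1236. The ratio to Namalwa depends strongly on its library (1.25 or 2.68 FPKM). KM-H2 was higher than Reh by 5.36 (SE 0.26, adjusted p = 5.07e-07) and than Namalwa by 3.84 (adjusted p = 4.16e-06).

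Outside KM-H2 the differences of WNT10A were smaller on this scale. Namalwa exceeded Reh by 1.52 (adjusted p = 0.00217). With a pseudocount of 0.1 the differences from Reh, which was listed at 0, were 4.28 in Namalwa and 3.48 in L428. L428 exceeded Reh by 1.02 (adjusted p = 0.0122), a call that was lost without L428 library 0 (0.86, adjusted p = 0.0676), without Reh library 0 (adjusted p = 0.0617) and without Reh library 1 (adjusted p = 0.0636), and under quantile normalization (0.92). The 0.89 between L1236 and Reh did not reach the size needed, although with a pseudocount of 0.1 it became 3.25 and was called. WNT5A and WNT10A followed each other over the 12 libraries with a Pearson r of 0.965. KM-H2 and Reh lay at the ends of the range, and r was not computed without them.

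Since WNT5A and WNT10A were high in the same line, the sequences before their RefSeq start sites were read. RefSeq promoter windows (GRCh38.p14) matched 7 of the 10 genes with 9 windows, and the 250 bases before each start were searched on both strands. The TCF/LEF motif was searched as CTTTGAA, as its variant with a final T and as that with a final pair of T. The AP-1 motif was searched as TGANTCA with any base as N, and the NF-kappaB motif by its usual degenerate form. Of 35116 windows of this length, 9.97% held the TCF/LEF motif, 6.57% the AP-1 motif and 9.96% the NF-kappaB motif. The windows below were located in GRCh37 by their exact and only match and are given 5′ to 3′ on the strand of the gene. For the upstream start of WNT5A, the 92 bases that overlap an annotated exon were left out and 158 remain, at chr3:55521427-55521584 on the minus strand, inside the annotated extent of the gene. The downstream window of WNT5A, at chr3:55515427-55515676 on the minus strand, holds no annotated exon. The WNT10A window, at chr2:219745324-219745573 on the plus strand, ends at the base before the gene. Capitals mark the NF-kappaB motif.
WNT5A, upstream start: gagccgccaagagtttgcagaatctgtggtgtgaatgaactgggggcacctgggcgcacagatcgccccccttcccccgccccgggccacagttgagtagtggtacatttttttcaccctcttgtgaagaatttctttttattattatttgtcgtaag
WNT5A, downstream start: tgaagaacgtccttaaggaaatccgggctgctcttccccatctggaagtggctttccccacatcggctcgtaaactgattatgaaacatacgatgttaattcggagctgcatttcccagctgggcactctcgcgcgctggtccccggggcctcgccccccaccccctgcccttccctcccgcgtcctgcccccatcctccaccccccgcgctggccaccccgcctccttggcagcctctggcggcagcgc
WNT10A: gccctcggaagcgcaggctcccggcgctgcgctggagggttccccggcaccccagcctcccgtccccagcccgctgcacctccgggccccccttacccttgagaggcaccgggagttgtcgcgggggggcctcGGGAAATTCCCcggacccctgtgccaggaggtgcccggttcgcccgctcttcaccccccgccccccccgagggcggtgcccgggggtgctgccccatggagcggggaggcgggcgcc

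The WNT10A window held 2 overlapping NF-kappaB matches, 1 on each strand, and neither window of WNT5A held any of the 3 motifs. Among the other windows of the 10 genes only that of FZD5 held a match, 1 of the NF-kappaB motif. Bases G and C made up 77.6% of the WNT10A window and 52.8% and 64.4% of the full windows of WNT5A. A match describes the letters of a window, not a site in use, and FPKM per gene does not tell which start a transcript used.

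WNT5B, a close relative of WNT5A, lies at chr12:1639057-1756378 on the plus strand (GRCh37) and had another distribution. It stood at 25.8 and 24.7 FPKM in L1236 and at 4.25 and 5.53 in Namalwa. In L428 it gave 0.145 and 0.0370 FPKM, in Reh 0.0507 and 0.0516, in PMA-treated Reh 0.0322 and 0, and it was listed at 0 in both KM-H2 libraries. L1236 was highest and Namalwa second with no overlap, and the other 4 conditions were near the floor. How near is shown by the steps of a fragment: multiplied by the relative depth, the values of L428, Reh and PMA library 0 came to 2.00, 1.00, 1.00, 1.00 and 1.00 times the Reh library 0 value, as would single fragments or pairs of them. The line with the most WNT5A thus had no WNT5B listed, and the line with the most WNT5B had little WNT5A.

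L1236 exceeded Reh in WNT5B by 4.64 (SE 0.16, adjusted p = 9.25e-08) and Namalwa by 2.16 (adjusted p = 6.38e-06). Namalwa exceeded Reh by 2.48 (adjusted p = 4.70e-06). Against Namalwa, KM-H2 differed by -2.55 (adjusted p = 2.45e-06) and L428 by -2.43 (adjusted p = 3.67e-06), so that a Hodgkin line could lie on either side of this control. With the Hodgkin libraries of suffix 1 left out, all 5 of these differences were called in the same direction.

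FZD6, a Frizzled receptor known for planar cell polarity, lies at chr8:104310661-104345094 on the plus strand (GRCh37). It stood at 20.4 and 23.9 FPKM in L1236 and at 22.3 and 43.6 in L428. In KM-H2 it was listed at 0 in library 0 and stood at 1.39 FPKM in library 1, in Namalwa it stood at 1.29 and 1.89, in Reh at 0.320 and 0.118, and in PMA-treated Reh at 0.0369 and 0. L1236 and L428 overlapped each other and lay above all other conditions, whereas Namalwa, KM-H2 and Reh formed a lower range in which neighbours overlapped. The means were 13.9 times that of Namalwa in L1236 and 20.7 times in L428.

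L428 exceeded Reh in FZD6 by 4.73 (SE 0.42, adjusted p = 1.94e-05) and Namalwa by 3.65 (adjusted p = 1.22e-04). L1236 exceeded Reh by 4.25 (adjusted p = 3.65e-05) and Namalwa by 3.16 (adjusted p = 3.04e-04). KM-H2 gave 0.35 against Reh (adjusted p = 0.548) and -0.74 against Namalwa (adjusted p = 0.198), and without KM-H2 library 1, the only one with a listed value, the latter became -1.36 and was called. The 1.08 between Namalwa and Reh missed the threshold (adjusted p = 0.0948) and passed it without KM-H2 library 0 (adjusted p = 0.0307) or KM-H2 library 1 (adjusted p = 0.0303), whose disagreement enters the shared estimate of spread.

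FZD3, a Frizzled receptor with known roles in axon guidance, lies at chr8:28351722-28431784 on the plus strand (GRCh37) and was found above 0 in every library. It stood at 5.22 and 3.11 FPKM in KM-H2, 5.12 and 4.25 in L1236, and 6.76 and 7.70 in L428. It stood at 2.92 and 3.20 FPKM in Namalwa, 2.12 and 1.93 in Reh, and 0.398 and 0.856 in PMA-treated Reh. L428 was highest without overlap, L1236 overlapped KM-H2 and KM-H2 overlapped Namalwa, and Reh and then PMA-treated Reh followed without overlap.

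Only L428 passed the test in FZD3 against the controls, by 1.44 over Reh (SE 0.24, adjusted p = 0.00126) and by 1.02 over Namalwa (adjusted p = 0.00871). The second call was lost without L428 library 1 (0.94), without Namalwa library 0 (0.97) and under quantile normalization (0.83). KM-H2 gave 0.74 and L1236 gave 0.91 against Reh, both below the size needed, and became 1.04 without KM-H2 library 1 and 1.02 without L1236 library 1, each then called. With a pseudocount of 0.1 the difference of L1236 was 1.17 and was called. PMA-treated Reh differed from Reh by -0.91 (adjusted p = 0.0211), which became -1.11 and was called without PMA library 1. With a pseudocount of 0.1 the difference after PMA was -1.62 and was called, since this receptor was among the low genes there.

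FZD5, a Frizzled receptor known from the eye and the intestine, lies at chr2:208627322-208634630 on the minus strand (GRCh37). It stood at 0.992 and 1.70 FPKM in KM-H2, 0.750 and 0.393 in L1236, and 2.79 and 1.67 in L428. It stood at 1.58 and 0.957 FPKM in Namalwa, 1.93 and 1.26 in Reh, and 0.546 and 0.821 in PMA-treated Reh. No line stood out, and of the 10 genes this was the least variable between conditions. The means ran in the order L428, Reh, KM-H2, Namalwa, PMA-treated Reh and L1236, and of the 5 pairs of neighbours only Namalwa and PMA-treated Reh did not overlap. No comparison with a control was called, although the -0.72 between L1236 and Reh became -1.36 with a pseudocount of 0.1 and was then called (adjusted p = 0.0457). L428 exceeded L1236 by 1.03 (adjusted p = 0.0156), and this call was lost without L1236 library 1 (0.86) or L428 library 0 (0.78). In a fit on the 2 conditions alone the difference stayed at 1.03 but was not called (adjusted p = 0.0856).

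LRP5, a co-receptor of the beta-catenin branch, lies at chr11:68080059-68216743 on the plus strand (GRCh37). It stood at 7.27 and 7.81 FPKM in Reh, at 4.61 and 3.47 in Namalwa, and at 1.98 and 2.29 in PMA-treated Reh. It stood at 2.31 and 1.62 FPKM in L428, 0.689 and 0.210 in KM-H2, and 0.232 and 0.194 in L1236. All 6 Hodgkin libraries were below all 4 libraries of the untreated controls, and PMA-treated Reh lay in the range of L428. The Reh mean was 35.4 times that of L1236, 16.8 times that of KM-H2 and 3.83 times that of L428. The ratio to KM-H2 depends strongly on the library, since library 1 (0.210 FPKM) lay in the range of L1236 and library 0 (0.689 FPKM) above it.

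The differences of LRP5 from Reh were -2.82 in L1236 (SE 0.22, adjusted p = 8.22e-06), -2.58 in KM-H2 (adjusted p = 1.48e-05) and -1.53 in L428 (adjusted p = 4.64e-04). From Namalwa they were -2.05 in L1236 (adjusted p = 7.94e-05) and -1.81 in KM-H2 (adjusted p = 1.74e-04), both called, and -0.76 in L428 (adjusted p = 0.0208), below the size needed. After PMA, LRP5 fell by 1.45 (adjusted p = 0.00152), from a mean of 7.54 to 2.14 FPKM.

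LRP6, the second co-receptor of this branch, lies at chr12:12268959-12419978 on the minus strand (GRCh37). It stood at 7.36 and 8.80 FPKM in PMA-treated Reh, 5.88 and 4.40 in Reh, and 3.01 and 2.38 in Namalwa. It stood at 3.29 and 4.28 FPKM in L428, 0.951 and 0.597 in L1236, and 0 and 0.0354 in KM-H2. The 6 conditions formed an order without any overlap between neighbours, from PMA-treated Reh through Reh, L428, Namalwa and L1236 to KM-H2. Unlike LRP5, LRP6 in L428 lay among the controls.

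KM-H2 differed from Reh in LRP6 by -2.58 (SE 0.22, adjusted p = 1.28e-05) and from Namalwa by -1.85 (adjusted p = 1.31e-04). L1236 differed from Reh by -1.79 (adjusted p = 1.49e-04) and from Namalwa by -1.06 (adjusted p = 0.00397), the latter being lost without L1236 library 1 (-0.91) or Namalwa library 0 (-0.94). L428 gave -0.36 against Reh (adjusted p = 0.226) and 0.37 against Namalwa (adjusted p = 0.204). PMA-treated Reh gave 0.57 against Reh (adjusted p = 0.0737), so the 2 co-receptors differed in sign after PMA and only that of LRP5 was called. Over the 12 libraries LRP6 had its most negative correlations with WNT10A (r = -0.822) and WNT5A (r = -0.801), the ligands that were highest in the line where LRP6 was lowest.

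ROR1, a receptor of WNT5A, lies at chr1:64239688-64647181 on the plus strand (GRCh37). It stood at 19.5 and 10.8 FPKM in Namalwa and at 0.0289 FPKM in PMA library 1, and was listed at 0 in the other 9 libraries. It passed the filter on low values through Namalwa alone, so its calls follow from that line, and with either Namalwa library left out it was not tested. Namalwa exceeded Reh by 3.96 (SE 0.22, adjusted p = 2.00e-06), and each Hodgkin line differed from Namalwa by -3.96. The highest WNT5A value and the highest ROR1 value were thus found in different lines.

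LEF1, the transcription factor at the end of the beta-catenin branch, lies at chr4:108968701-109090112 on the minus strand (GRCh37) and was the most abundant of the 10 genes in Reh. It stood at 243 and 218 FPKM in Reh, 61.3 and 57.7 in Namalwa, and 29.3 and 30.1 in PMA-treated Reh. It stood at 52.5 and 32.9 FPKM in KM-H2, 25.6 and 30.1 in L1236, and 4.89 and 3.43 in L428. All 6 Hodgkin libraries lay below the 4 libraries of untreated Reh and Namalwa. Only PMA-treated Reh and L1236 overlapped as neighbours in the order. The Reh mean was 5.40 times that of KM-H2, 8.27 times that of L1236 and 55.4 times that of L428.

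Against Reh the difference in LEF1 was -5.50 in L428 (SE 0.24, adjusted p = 3.95e-07), -3.01 in L1236 (adjusted p = 9.97e-06) and -2.44 in KM-H2 (adjusted p = 3.88e-05). Against Namalwa it was -3.57 in L428 (adjusted p = 4.54e-06), -1.07 in L1236 (adjusted p = 0.00695) and -0.51 in KM-H2 (adjusted p = 0.131). The call in L1236 against Namalwa was lost under both other scalings (-0.99 with median ratios and -0.99 with quantiles) and without L1236 library 0 (-0.96). Namalwa itself differed from Reh by -1.93 (adjusted p = 3.26e-04). After PMA, LEF1 in Reh fell by 2.91 (adjusted p = 5.54e-05), from a mean of 231 to 29.7 FPKM, a ratio of 7.76. Among precursor and B-lineage markers, RAG1 stood at 435 and 384 FPKM in Reh and at 5.09 and 11.9 after PMA. CD79B stood at 394 and 414 FPKM in Reh and 39.0 and 86.2 after PMA, whereas CD79A was higher after PMA (947 and 1102 against 336 and 429). The part of these markers in the LEF1 result was not tested. An antisense gene, LEF1-AS1, was listed at 27.2 and 21.3 FPKM in Reh and at 1.03 and 1.40 after PMA. The library kit keeps the strand, but the sources used here do not say whether counting used it, so fragments of LEF1 and LEF1-AS1 may not be fully separated.

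**Figure D2:**
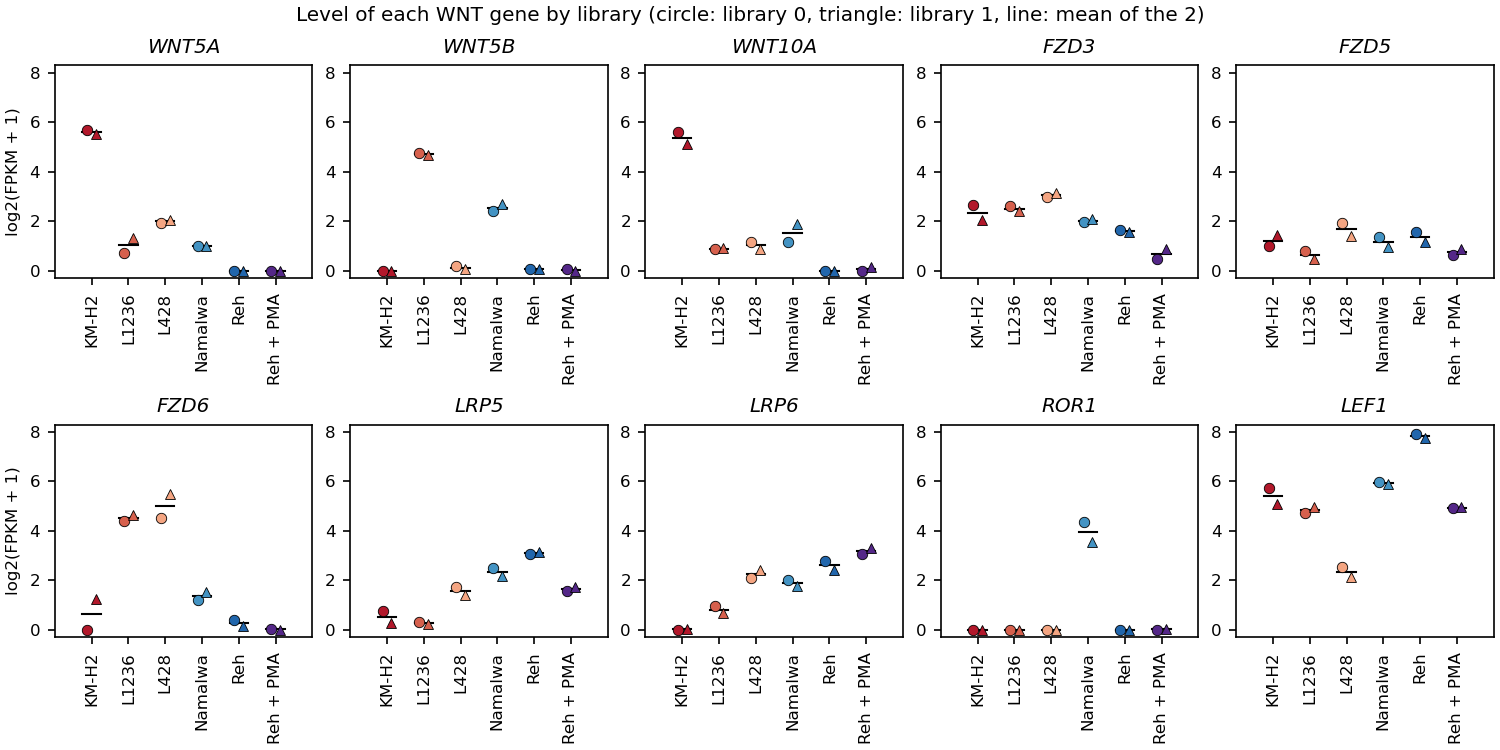
Levels of the 10 genes as log2(FPKM + 1) on a common axis, by condition, with each of the 2 libraries as a point and their mean as a line. WNT5A and WNT10A stand out in KM-H2, WNT5B in L1236, FZD6 in L1236 and L428, ROR1 in Namalwa (19.5 and 10.8 FPKM) and LEF1 in Reh (243 and 218 FPKM).

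The plot of levels by condition shows that no gene was high in all 3 Hodgkin lines and near the floor in all controls. The 10 genes were next counted by comparison, beside the share of all 14679 tested genes that were called in the same direction. All 10 passed the filter of 1 FPKM in at least 2 libraries, but WNT5A, WNT5B, WNT10A, FZD5, FZD6 and ROR1 had both libraries of a condition above it in 3 or fewer of the 6 conditions. WNT5A reached 1 FPKM in Hodgkin libraries alone, so like those of ROR1 its calls depend on the filter, and the counts below are no evidence for the list as a whole. The 3 comparisons with Reh share the Reh libraries and the 3 with Namalwa share the Namalwa libraries.

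KM-H2 against Reh had 2 genes higher (17.2% of all genes) and 3 lower (15.5%). The higher genes were WNT5A and WNT10A and the lower ones LRP5, LRP6 and LEF1. KM-H2 against Namalwa had the same 2 genes higher (17.4%) and 4 lower (13.0%), namely WNT5B, LRP5, LRP6 and ROR1. Without the suffix 1 libraries the difference of FZD3 from Reh became 1.04 and that of FZD6 from Namalwa became -1.36, both past the size needed.

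L1236 against Reh had 3 genes higher (15.8%), WNT5A, WNT5B and FZD6, and 3 lower (14.9%), LRP5, LRP6 and LEF1. L1236 against Namalwa had 2 higher (16.6%), WNT5B and FZD6, and 4 lower (12.9%), LRP5, LRP6, ROR1 and LEF1. Without the suffix 1 libraries the difference from Reh rose past the size needed for FZD3 (1.02) and dropped below it for WNT5A (0.73). That of LRP6 from Namalwa also dropped below it (-0.91).

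L428 against Reh had 4 genes higher (15.6%), WNT5A, WNT10A, FZD3 and FZD6, and 2 lower (14.8%), LRP5 and LEF1. L428 against Namalwa had 3 higher (17.7%), WNT5A, FZD3 and FZD6, and 3 lower (13.7%), WNT5B, ROR1 and LEF1. Without the suffix 1 libraries the differences of WNT5A (0.93) and FZD3 (0.94) from Namalwa dropped below the size needed.

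PMA-treated Reh against Reh had no gene higher (10.5%) and 2 lower (11.8%), LRP5 and LEF1. Leaving out PMA library 1 added FZD3 (-1.11) to the lower genes. Namalwa against Reh had 3 genes higher (7.50%), WNT5B, WNT10A and ROR1, and 1 lower (11.5%), LEF1. WNT5A narrowly missed a call there (0.99, adjusted p = 0.00735) and was called under quantile normalization (1.24) and with a pseudocount of 0.1 (3.45). Quantile normalization also added FZD6 (1.33). As shares of 10 genes these counts are coarse. The ribosomal protein median was also lower with PMA (348 and 272 FPKM against 1472 and 1649), and its part in the PMA result was not tested.

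The Hodgkin lines were also set against each other, in comparisons added after the values were seen. KM-H2 against L1236 had 2 genes higher (13.5%), WNT5A and WNT10A, and 2 lower (13.2%), WNT5B and FZD6. LRP6 differed by -0.79 there (adjusted p = 0.0183), which became -2.88 with a pseudocount of 0.1 and was called. KM-H2 against L428 had 3 higher (13.7%), WNT5A, WNT10A and LEF1, and 3 lower (12.9%), FZD6, LRP5 and LRP6. Between KM-H2 and L428, LRP5 differed by -1.04 and was lost without KM-H2 library 1 (-0.80) or L428 library 0 (-0.88). In a fit on the 2 conditions alone LRP5 stayed at -1.04 but was not called (adjusted p = 0.0790). L428 against L1236 had 3 higher (11%), FZD5, LRP5 and LRP6, and 2 lower (10.9%), WNT5B and LEF1. WNT5A differed by 0.96 in that comparison, just under the size needed, and was called without L1236 library 1 (1.26) or L428 library 0 (1.03) and under quantile normalization (1.01). Without the suffix 1 libraries LEF1 was gained between KM-H2 and L1236 (1.01), LRP5 was lost between KM-H2 and L428 (-0.97), and between L428 and L1236 WNT5A was gained (1.19) and FZD5 lost (adjusted p = 0.0617).

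**Figure D3:**
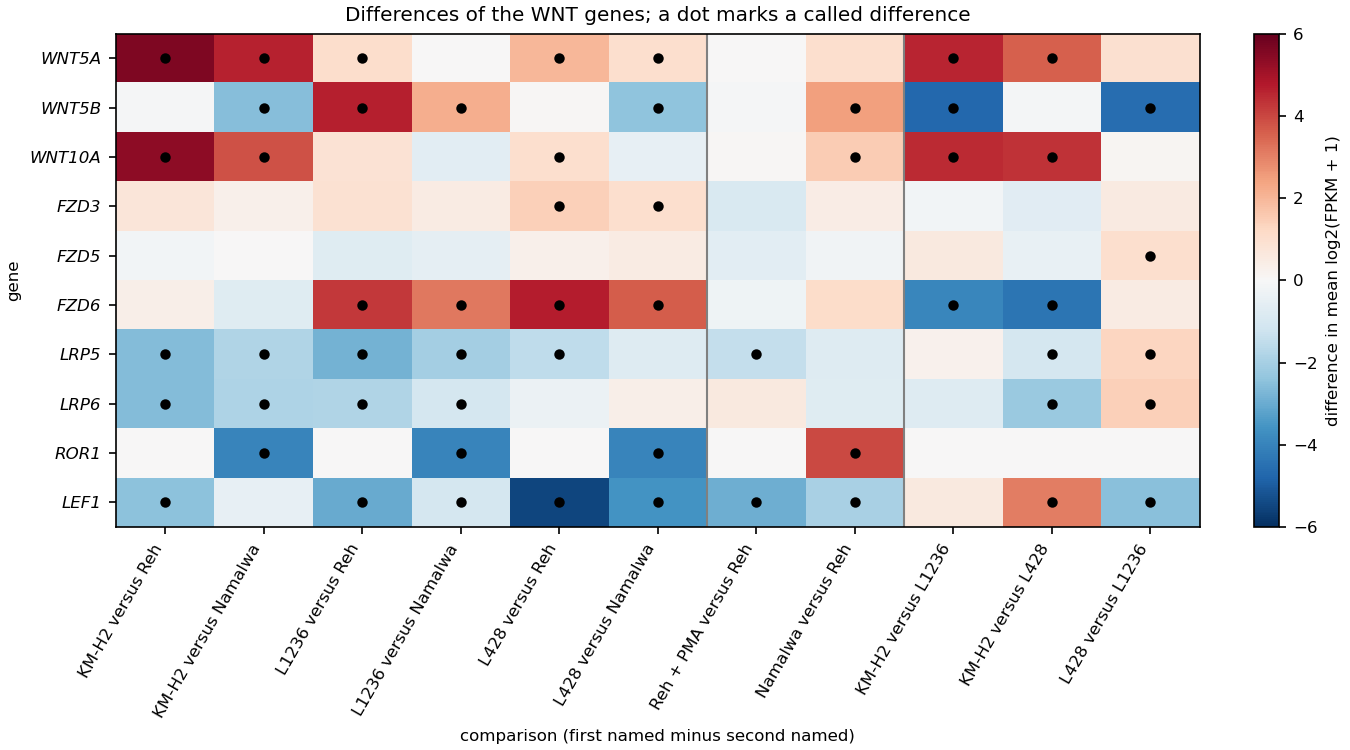
Difference in mean log2(FPKM + 1) of each of the 10 genes in 11 comparisons, first named minus second named, with red for higher and blue for lower. A dot marks a difference of 1 or more with an adjusted p under 0.05, and grey lines separate the Hodgkin comparisons with controls, the PMA and Namalwa comparisons with Reh, and the Hodgkin lines among themselves. WNT5A against Reh in KM-H2 (5.60) and LEF1 against Reh in L428 (-5.50) have the deepest colours.

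Taking each line as 1 value, the 3 Hodgkin lines were compared with the 2 control lines by a two-sided exact permutation test, for which 0.1 is the smallest possible p. None of the 10 genes could therefore reach 0.05. FZD3 reached 0.1 with a mean difference of 0.82, although its libraries overlapped between the classes. LRP5 and LEF1 were the only genes whose 6 Hodgkin libraries did not overlap the 4 control libraries, both lower in Hodgkin, where 8.06% of all tested genes showed such a separation, and 0 genes were higher without overlap, against 9.50% of all genes. FZD3 overlapped only through KM-H2 library 1 (3.11 FPKM against 3.20 in Namalwa library 1), and without that library, or without the suffix 1 libraries, 3 genes in place of 2 did not overlap. The mean differences of LRP5 and LEF1 were -1.92 and -2.68, each with an exact p of 0.2. For WNT5A the mean difference was 2.38 (exact p = 0.2), for FZD6 2.57 (exact p = 0.3) and for WNT10A 1.66 (exact p = 0.6).

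The genes most like each member were listed by Pearson r on the log2(FPKM + 1) scale, over 12 libraries that fall into 6 conditions and share their duplicates. This is a description without a test. WNT5A was followed most closely by ST8SIA1 (0.985) and RORA (0.981), both highest in KM-H2. WNT10A was followed by CR2 (0.983), THBS4 (0.981) and C15orf65 (0.976), and CR2 had a mean of 165 FPKM in KM-H2. WNT5B was followed by BTNL9 (0.996) and IMPACT (0.993), both highest in L1236 and second in Namalwa.

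Among the receptors, FZD6 was most like HOXB7 (0.988), FOXD3-AS1 (0.982) and U2AF1L4 (0.980), and FZD3 most like IFFO1 (0.969), POLR1E (0.958) and PIP5K1B (0.958). LRP5 was most like VWCE (0.971), S1PR4 (0.967) and CARHSP1 (0.953). LRP6 was most like PTPN6 (0.980), MORC2 (0.975) and FAM76B (0.959). ROR1 was most like STC2, VPREB1 and SNAI2 (all above 0.99), which had means of 8.29, 9.63 and 3.66 FPKM in Namalwa and less than 0.1 elsewhere. LEF1 was most like NME4 (0.961), PHLPP1 (0.947) and LINC00341 (0.942). FZD5 varied too little for such a list.

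The other genes of the pathway were taken from a list of 111 genes in 9 roles, of which 69 passed the filter. Their counts are given with the share of all tested genes called in the same direction. In KM-H2 16 were higher (17.2%) and 16 lower (15.5%) than in Reh, and 17 higher (17.4%) and 12 lower (13.0%) than in Namalwa. In L1236 10 were higher (15.8%) and 17 lower (14.9%) than in Reh, and 10 higher (16.6%) and 10 lower (12.9%) than in Namalwa. In L428 6 were higher (15.6%) and 12 lower (14.8%) than in Reh, and 9 higher (17.7%) and 12 lower (13.7%) than in Namalwa. PMA-treated Reh had 11 higher (10.5%) and 9 lower (11.8%) than Reh, and Namalwa 6 higher (7.50%) and 14 lower (11.5%) than Reh. KM-H2 had 11 higher (13.5%) and 9 lower (13.2%) than L1236, and 13 higher (13.7%) and 11 lower (12.9%) than L428. L428 had 8 higher (11%) and 11 lower (10.9%) than L1236. Over these 69 genes the median difference lay between -0.26 and 0.21 in the 11 comparisons. Against both controls, 13 genes were higher (11.9% of all tested genes) and 7 lower (6.96%) in KM-H2, 7 higher (10.9%) and 7 lower (6.61%) in L1236, and 3 higher (11%) and 6 lower (7.13%) in L428. The counts by role below concern 2 to 22 genes each and are given as a description only. Of the genes named below, some passed the filter through a single condition, so that their calls follow from it: WLS through KM-H2, WNT8A through L1236, LGR5 through Reh, and WNT9A and APCDD1 through PMA-treated Reh. WNT10B, FZD4, PRICKLE2 and CELSR3 passed it through Hodgkin lines alone, and NKD2 and NFATC4 through the other conditions alone.

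Of 16 other ligands only 4 passed the filter, and each is named here. WNT10B, a relative of WNT10A, stood at 5.90 and 6.30 FPKM in KM-H2 and at or below 1.99 elsewhere, and was higher in KM-H2 than in Reh by 2.73 (adjusted p = 1.91e-06) and than in Namalwa by 2.43. WNT3 was lower in KM-H2 and in L1236 than in both controls, with values of 0.0547 to 0.179 FPKM in these Hodgkin libraries and 1.56 to 2.72 in the controls. WNT8A reached 1.61 and 1.92 FPKM in L1236 and at most 0.0854 elsewhere. WNT9A was at or near 0 in all libraries except those treated with PMA, where it stood at 19.1 and 7.48 FPKM and exceeded Reh by 3.64 (adjusted p = 6.55e-05).

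Both genes of WNT processing and secretion passed the filter. WLS, the carrier that brings WNT proteins to the surface, stood at 10.5 and 11.7 FPKM in KM-H2, the line rich in WNT5A, WNT10A and WNT10B, and was listed at 0 or at most 0.0444 in every other library. KM-H2 exceeded Reh in WLS by 3.56 (SE 0.12, adjusted p = 7.86e-08) and Namalwa by 3.59. PORCN, the enzyme that attaches the lipid, stood at 7.62 and 9.36 FPKM in L1236 and at 6.24 and 7.40 in KM-H2. L1236 exceeded Reh by 1.18 and Namalwa by 1.20, the latter becoming 0.96 under quantile normalization. KM-H2 exceeded them by 0.91 and 0.92, just below the size needed, and differed from L1236 by -0.28 (adjusted p = 0.344).

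Of 7 other Frizzled receptors 5 passed the filter. KM-H2 had 2 higher and 2 lower than Reh and 3 higher than Namalwa, L1236 had 3 lower than Reh and none called against Namalwa, and L428 had 2 higher than Reh and 4 higher than Namalwa. FZD4 stood at 2.74 and 2.59 FPKM in KM-H2 and 1.80 and 0.853 in L428, against at most 0.0282 in the untreated controls, and its calls in L428 were lost without L428 library 0 (0.86 against Reh and 0.89 against Namalwa). FZD7 stood at 2.66 and 4.92 FPKM in KM-H2 and at 3.77 and 4.16 in L428, and exceeded Namalwa (0.332 and 0.377 FPKM) by 1.78 and 1.87. Its smaller difference of KM-H2 from Reh, 1.11, became 0.76 without KM-H2 library 1 or the suffix 1 libraries and 0.95 without Reh library 0. In a fit on the 2 conditions alone it stayed at 1.11 but was not called (adjusted p = 0.0764). The 1.20 of L428 over Reh in FZD7 was no longer called without Reh library 0 (1.05). With PMA, FZD8 rose from 3.62 and 5.01 FPKM to 22.9 and 27.6 (difference 2.31, adjusted p = 6.42e-05), while FZD2 fell by 1.63 (adjusted p = 5.90e-04). FZD8 was listed at 0 in all libraries of KM-H2 and L1236, and the latter 2 lines and Namalwa were lower than Reh in FZD8 and FZD2.

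Of 5 other co-receptors 3 passed the filter. PTK7, a receptor of the polarity branch, stood at 20.2 and 27.7 FPKM in KM-H2, 0.446 and 0.403 in L1236, and 0.0393 and 0.0601 in L428, against 4.71 and 3.76 in Namalwa and 12.7 and 13.7 in Reh. It was lower in L1236 and L428 than in both controls, by -3.76 in L428 against Reh (adjusted p = 1.04e-06). RYK stood at 28.8 and 33.5 FPKM in KM-H2 and exceeded Reh by 1.00 and Namalwa by 1.16. The call against Reh was lost without KM-H2 library 1 or the suffix 1 libraries (0.90 in each) or Reh library 0 (0.87). That against Namalwa was lost without Namalwa library 0 (0.93) and in a fit on the 2 conditions alone (1.16, adjusted p = 0.0532).

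Of 7 R-spondins and their receptors 2 passed the filter. LGR5, a receptor of R-spondins, was listed at 0 in the Hodgkin and Namalwa libraries, stood at 1.78 and 2.31 FPKM in Reh, and fell by 1.30 with PMA (adjusted p = 3.12e-04). Of 17 genes of receptor turnover and of extracellular inhibitors 5 passed. KREMEN2, a receptor of the inhibitor DKK1, stood at 19.9 and 24.5 FPKM in KM-H2, which exceeded Reh by 3.31 (adjusted p = 1.61e-04) and Namalwa by 2.07. ZNRF3, a ligase that removes Frizzled receptors, was lower in KM-H2 and L1236 than in both controls. It also fell by 1.04 with PMA, a call that was lost without Reh library 1 (-0.91), without PMA library 0 (-0.83) and under quantile normalization (-0.74). With a pseudocount of 0.1 the difference was larger but was not called (-1.51, adjusted p = 0.0802).

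The related ligase RNF43 stood at 10.7 and 9.12 FPKM in Reh and at 2.03 and 1.56 after PMA, and fell by 1.97 (adjusted p = 0.0117). That call was lost when any of the 4 Reh or PMA libraries was left out (-1.84 to -2.09). APCDD1, an inhibitor of WNT at the membrane, rose with PMA from 0.555 and 0.173 FPKM to 6.07 and 18.8 (difference 3.13, adjusted p = 4.60e-04) and was listed at 0 in the other lines.

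Of 15 genes of the Dishevelled proteins and the destruction complex 14 passed the filter. KM-H2 had 1 higher and 2 lower against each control, L1236 had 2 lower than Reh and 1 higher and 2 lower than Namalwa, and L428 had 3 lower than Reh and 1 higher and 2 lower than Namalwa. NKD2, an inhibitor that binds Dishevelled, stood at 12.3 and 10.8 FPKM in Reh and at 1.62 and 3.12 in Namalwa, and among the 6 Hodgkin libraries was listed above 0 only in L1236 library 1 (0.152 FPKM). It was lower in all 3 Hodgkin lines than in both controls and fell by 2.19 with PMA (adjusted p = 1.32e-04). CTNNB1, which encodes beta-catenin itself, stood at 36.2 and 46.6 FPKM in Reh and 172 and 128 after PMA, a difference of 1.82 (adjusted p = 6.17e-04). TNKS2 was higher by 1.49 after PMA (adjusted p = 0.00294). GSK3A, a kinase of the complex, was lower in L428 (9.52 and 11.4 FPKM) than in Reh (22.6 and 26.6) and Namalwa (24.0 and 30.5). KM-H2 was nearly as low (12.8 and 12.1 FPKM), while L1236 stood at 35.8 and 25.7. The difference of KM-H2 was -1.06 from Namalwa, which was called, and -0.92 from Reh, below the size needed.

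Of 14 nuclear partners and corepressors of the TCF/LEF factors 12 passed the filter. KM-H2 had 5 higher and 3 lower than Reh and 5 higher and 2 lower than Namalwa, L1236 had 2 higher and 4 lower than Reh and 2 higher and 1 lower than Namalwa, and L428 had 2 lower than Reh and 1 higher and 1 lower than Namalwa. TCF7, a factor of the same family as LEF1, stood at 27.0 and 11 FPKM in KM-H2 and 38.0 and 41.2 in L1236. It stood at 1.21 and 0.168 FPKM in L428, 1.49 and 1.62 in Namalwa, and 0.778 and 0.362 in Reh. L1236 exceeded Reh in TCF7 by 4.70 (SE 0.41, adjusted p = 1.53e-05). L428, the line with the least LEF1, was low in TCF7, but so was Reh, the line with the most LEF1. L428 differed from Reh in TCF7 by 0.05 (adjusted p = 0.961). PMA-treated Reh was lowest in TCF7 (0.0730 and 0.0460 FPKM).

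CTBP2, a corepressor, was lower in all 3 Hodgkin lines than in both controls, by -5.00 in L1236 against Reh (adjusted p = 1.50e-06). In L428 against Namalwa its difference of -1.21 became -0.77 without L428 library 1 or the suffix 1 libraries and was not called without Namalwa library 1 (-1.01). In a fit on the 2 conditions alone it stayed at -1.21 but was not called (adjusted p = 0.125). TLE1, a Groucho corepressor, stood at 41.6 and 31.9 FPKM in Reh and fell by 2.41 with PMA (adjusted p = 3.55e-04), whereas its relative TLE4 rose by 1.62 (adjusted p = 6.39e-04). TLE4 was lower in KM-H2 (0.844 and 1.35 FPKM) than in both controls.

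Of 28 genes of the branch without beta-catenin 22 passed the filter. KM-H2 had 4 higher and 5 lower than Reh and 3 higher and 4 lower than Namalwa, L1236 had 5 higher and 4 lower than Reh and 5 higher and 3 lower than Namalwa, and L428 had 2 higher and 4 lower than Reh and 3 higher and 4 lower than Namalwa. CELSR3, a polarity cadherin, was higher in all 3 Hodgkin lines (4.27 to 10.2 FPKM) than in both controls (0.254 to 0.500 FPKM). PRICKLE2, a polarity protein, stood at 14.3 and 12.6 FPKM in L1236 and 2.07 and 2.28 in KM-H2 and was listed at 0 in the untreated controls. NFATC4 was lower in all 3 Hodgkin lines, at most 0.277 FPKM against 6.12 to 10.2 in the controls, and fell by 2.02 with PMA (adjusted p = 4.92e-04). PLCB2, a phospholipase of the calcium branch, was lower in L1236 and L428 than in both controls and fell by 1.18 with PMA. The PMA call was lost without Reh library 1 (-1.05) or PMA library 0 (-0.86). In a fit on the 2 conditions alone the difference stayed at -1.18 but was not called (adjusted p = 0.0691).

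**Figure D4:**
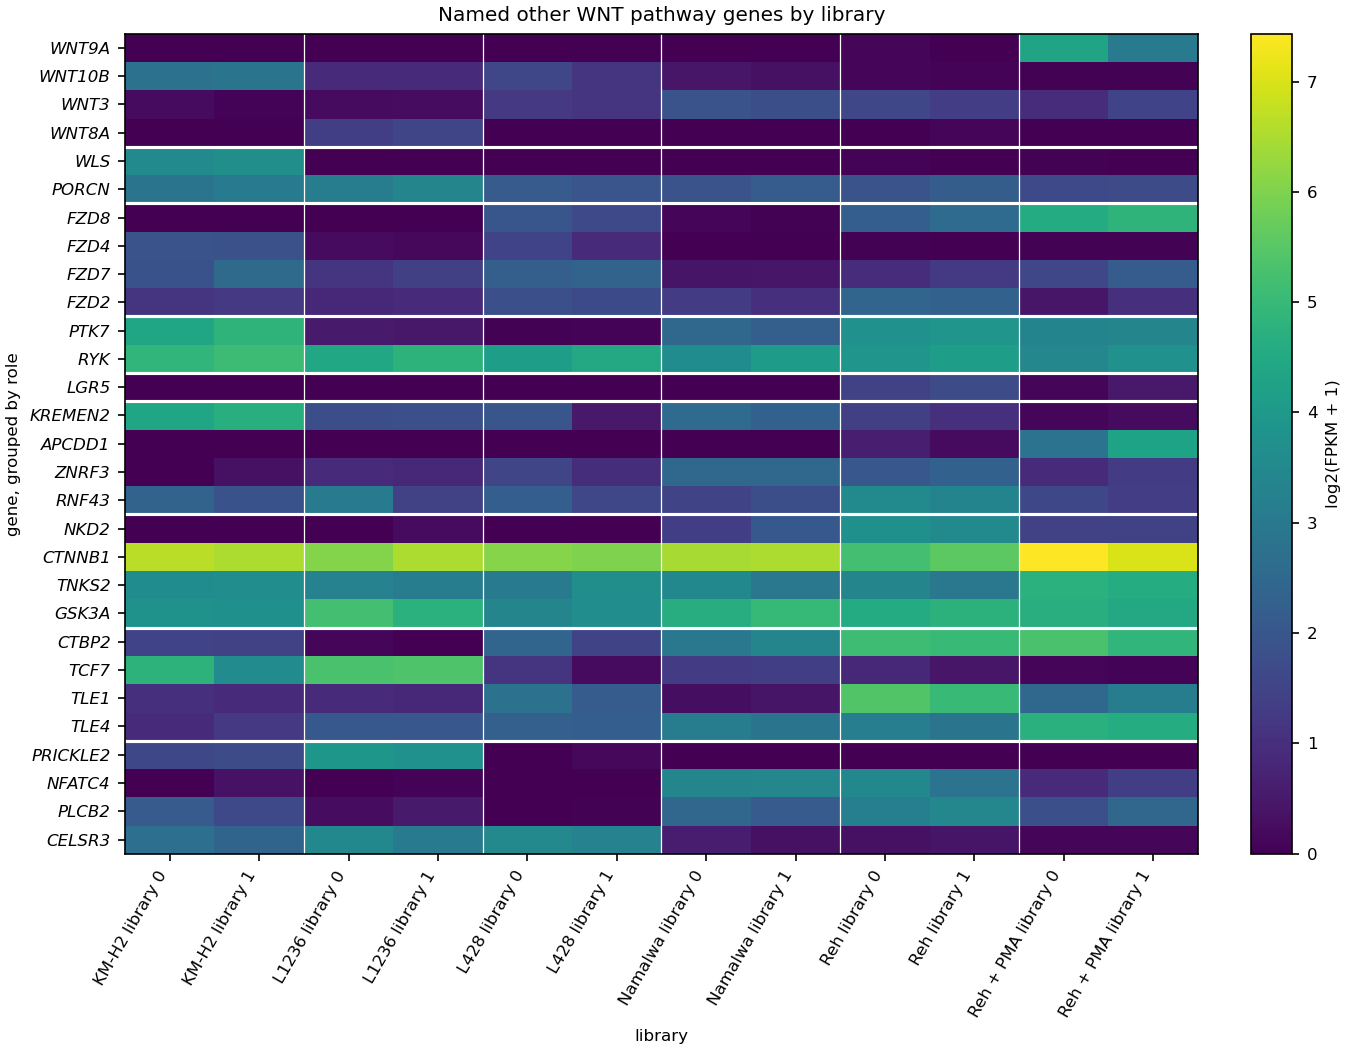
Levels as log2(FPKM + 1) of 29 other WNT pathway genes, grouped by role with white lines, in each of the 12 libraries. WLS is bright in KM-H2 only, KREMEN2 is brightest there, TCF7 in KM-H2 and L1236, NKD2 is dark in the Hodgkin lines, and WNT9A, FZD8 and APCDD1 are brightest after PMA (WNT9A at 19.1 and 7.48 FPKM).

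The plot of pathway genes by library shows the ligand WNT10B and the carrier WLS, both highest in KM-H2. WNT5A and WNT10A are not part of this plot. The genes shown were picked because they were called, so the plot does not represent the pathway as a whole.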

How the data were processed

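RNA was sequenced from 12 libraries of 6 conditions, 2 libraries each. The authors deposited FPKM values per gene. Their processing notes name TopHat2 2.0.11 and Cuffnorm 2.2.1 with the build hg19. The gene models, the scaling option and the use of strand in counting are not given in the sources used here. Columns carry a condition and a suffix, and which titled replicate each suffix stands for is not given. Genes at 1 FPKM or more in at least 2 libraries (14679 of 26210) were tested on log2(FPKM + 1) with limma 3.58.1 (R 4.3.3, empirical Bayes with a trend, 1 fit, 1 mean per condition, 6 residual degrees of freedom), two-sided, and Benjamini-Hochberg adjustment covered all genes tested. The code was tested on simulated data. Lines were compared as classes by exact permutation. The total number of fragments is unknown, and relative depth was read from low values.

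Of the other pathway genes, up to 4 a role were named, those with the largest difference that were called in the same direction against both controls in a Hodgkin line, or with PMA. For genes whose condition means spanned 2 or more on the log2 scale, genes among the 3 with the highest Pearson r were named. The members and lists were chosen with earlier results of these data known. Alternatives covered the pseudocount, filters, scalings, a replicate block, the fit, the call rule and leaving out libraries. Gene positions came from GENCODE 44 lifted to GRCh37. Tables and plots were made with Python 3.11.15, pandas 2.3.3, numpy 2.4.6 and matplotlib 3.10.9.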

Additional observations from a re-analysis of the deposited data

Results flagged for a closer look

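WNT5B moved in opposite directions from Namalwa in different Hodgkin lines. L1236 was above Namalwa, while KM-H2 and L428 were below it. KM-H2 differed from L1236 by -4.71 on the log2(FPKM + 1) scale and L428 differed from L1236 by -4.59. These differences follow from those against Namalwa, by which the gene was picked, and add no separate test. The values behind it were 25.8 and 24.7 FPKM in L1236, 4.25 and 5.53 in Namalwa, 0.145 and 0.0370 in L428, and 0 in both KM-H2 libraries. KM-H2 was the line of least relative depth.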

How the results depend on the processing

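For the 10 genes in 11 comparisons, 2387 alternative values were computed. Of these, 2323 kept their side of the threshold, 29 lost the call and 35 gained it. No called difference changed direction, but some small uncalled differences changed sign. For 29 other pathway genes it was 1825 of 1853 kept and 28 lost. Counts of calls moved by over 1.5 times in few settings. The genes called with PMA numbered 3265, and 1968 to 3395 when single libraries were left out, with the lowest count without PMA library 0 and 2092 without Reh library 0. A fit on the 2 conditions alone called 1972 genes in place of 3904 between KM-H2 and L428, and 2052 in place of 3216 between L428 and L1236. Calling on the adjusted p alone gave 7 of the 10 genes in place of 4 between Namalwa and Reh. Of all tested genes, 2792 were called there in the main fit and at most 3680 in any alternative. Quantile normalization left 1 gene in place of 2 without overlap between Hodgkin and control lines, and leaving out single libraries gave 2 to 3. No scaling moved the median difference of all genes by more than 0.1. The share of calls that were higher did depend on it. In KM-H2 against Namalwa it was 57.2%, and 61.3% with median ratios and 50.5% with quantiles. In Namalwa against Reh it was 39.4%, and 37.4% and 45.0% respectively.

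The labels do not say that the column suffix pairs samples across conditions. The differences between duplicates correlated with r = 0.427 between KM-H2 and L1236, 0.301 between KM-H2 and L428, 0.681 between L1236 and L428 and 0.357 between Namalwa and Reh, and with r between -0.0450 and 0.191 in the remaining pairs of conditions. A replicate block on the suffix left the number of the 10 genes called unchanged in each of the 11 comparisons. Leaving out the Hodgkin libraries of suffix 1 and comparing Hodgkin lines with each other were alternatives chosen after seeing the data. A pseudocount of 0.1 enlarged the differences of low genes and changed the sign of none called. Each condition stands for 1 line and 2 libraries, so no result extends to Hodgkin lymphoma as a class. FPKM values carry no fragment counts, so a count-based test was not run. Protein, ligand secretion and pathway activity were not measured here.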

Other observations

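The antisense gene LEF1-AS1 differed between duplicates more than LEF1 did. It was listed at 12 and 4.63 FPKM in KM-H2, 3.77 and 0.195 in L1236, and 0.995 and 0.341 in L428, where LEF1 was at 52.5 and 32.9, 25.6 and 30.1, and 4.89 and 3.43 FPKM. In Namalwa it stood at 7.10 and 5.32 FPKM and in Reh at 27.2 and 21.3, so library 1 had the lower value in 5 of the 6 conditions, all but PMA-treated Reh.

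ROR1-AS1, the antisense partner of ROR1, was listed at 1.39 and 0.143 FPKM in Namalwa, where ROR1 stood at 19.5 and 10.8. The summed level of the 10 genes was 261 and 233 FPKM in Reh, most of it LEF1, and 39.6 and 43.0 FPKM after PMA.

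CSF1R, 1 of 4 genes read as Hodgkin markers, stood at 11.8 and 11.2 FPKM in PMA-treated Reh and at most 2.05 FPKM in the Hodgkin libraries. TNFRSF11A stood at 61.5 and 51.8 FPKM in L1236 and at most 14.5 FPKM in any other library.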
